A study of Homo sapiens with 3 samples.

Results

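The human receptor tyrosine kinase genes were examined in maps of histone modification from H2087, an established lung adenocarcinoma cell line. The list held 57 genes of 21 families, out of 20163 protein-coding genes outside the mitochondrial chromosome, and its rule names genes and uses no measured value, although it was drawn up with earlier results of these data known. ChIP-seq had been performed on untreated H2087 cells with an antibody against trimethylated lysine 4 of histone H3 (H3K4me3) or acetylated lysine 27 of histone H3 (H3K27ac). Each mark was represented by 1 library of the same cell line (n = 1), while the input was left out as not analysed here. No value below therefore has a replicate, no test between groups was possible, and the exact Clopper-Pearson 95% intervals cover counting error only. The lists give called intervals without read counts, so the depth is unknown, and an unmarked gene may be one with too few reads.

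Receptor tyrosine kinases are single-pass membrane proteins that bind a ligand outside the cell and phosphorylate tyrosines inside it. The phosphorylated receptor recruits adaptors such as GRB2 and SHC1, and these start the RAS and phosphoinositide 3-kinase cascades. In lung adenocarcinoma, EGFR, ERBB2, MET, ALK, ROS1 and RET are known driver genes, through mutation, amplification or fusion. H3K4me3 typically sits at promoters in use, whereas H3K27ac is found at enhancers as well.

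The labelled cell type was checked by marker genes. All 6 epithelial markers (EPCAM, CDH1, KRT7, KRT8, KRT18 and KRT19) had H3K4me3 within 1 kb of the start, and 5 of the 6 also had H3K27ac. Of 5 lung lineage markers, NKX2-1 had both marks while NAPSA, SFTPB, SFTPC and SFTPA1 had neither. Neither the blood markers PTPRC and CD3E nor the mesenchymal markers COL1A1 and COL1A2 were marked, nor was the endothelial gene CDH5. The list of H3K4me3 held 18585 distinct intervals and that of H3K27ac 24096.

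Sequences before marked and unmarked receptor starts, and under intronic H3K27ac, are shown first to set their CG content beside the marks. They were taken from the GRCh37 (hg19) reference genome, 5′ to 3′, with every CG in capitals. Promoters of many expressed genes are rich in CG dinucleotides, and H3K4me3 is known to gather there. The first 6 are the 200 bases before the gene start, for 3 receptors with H3K4me3 at the start (EGFR, chr7:55086510-55086709, plus strand; MET, chr7:116312050-116312249, plus strand; ALK, chr2:30144453-30144652, minus strand), for the receptor with H3K27ac alone (EPHA2, chr1:16482565-16482764, minus strand), and for 2 drivers with neither mark (RET, chr10:43572312-43572511, plus strand; ROS1, chr6:117747106-117747305, minus strand). The last 2 are the centres of the highest H3K27ac intervals away from gene starts in EGFR (chr7:55198348-55198547, plus strand, intron 1) and EPHB2 (chr1:23067637-23067836, plus strand, intron 1). None of the 8 windows overlaps an annotated exon.
EGFR upstream: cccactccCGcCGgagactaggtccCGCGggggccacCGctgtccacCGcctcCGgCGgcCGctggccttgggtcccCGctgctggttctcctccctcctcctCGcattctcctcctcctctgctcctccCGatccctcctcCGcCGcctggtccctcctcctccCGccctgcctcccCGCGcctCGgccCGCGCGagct
MET upstream: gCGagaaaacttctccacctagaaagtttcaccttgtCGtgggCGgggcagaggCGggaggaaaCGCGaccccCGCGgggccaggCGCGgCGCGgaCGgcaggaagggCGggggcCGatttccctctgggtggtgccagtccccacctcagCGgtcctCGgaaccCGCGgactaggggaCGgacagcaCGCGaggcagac
ALK upstream: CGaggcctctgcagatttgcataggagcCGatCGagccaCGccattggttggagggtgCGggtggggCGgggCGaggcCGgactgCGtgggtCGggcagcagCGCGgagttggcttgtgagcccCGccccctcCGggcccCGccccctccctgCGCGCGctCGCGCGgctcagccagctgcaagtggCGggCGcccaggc
EPHA2 upstream: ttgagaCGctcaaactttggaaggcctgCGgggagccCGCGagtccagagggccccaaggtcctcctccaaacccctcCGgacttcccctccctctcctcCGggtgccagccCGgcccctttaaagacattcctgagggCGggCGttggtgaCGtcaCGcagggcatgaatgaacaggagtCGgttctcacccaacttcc
RET upstream: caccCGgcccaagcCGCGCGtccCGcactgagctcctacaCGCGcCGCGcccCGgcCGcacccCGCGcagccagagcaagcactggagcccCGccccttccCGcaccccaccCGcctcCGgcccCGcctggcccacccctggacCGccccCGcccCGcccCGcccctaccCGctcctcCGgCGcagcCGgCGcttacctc
ROS1 upstream: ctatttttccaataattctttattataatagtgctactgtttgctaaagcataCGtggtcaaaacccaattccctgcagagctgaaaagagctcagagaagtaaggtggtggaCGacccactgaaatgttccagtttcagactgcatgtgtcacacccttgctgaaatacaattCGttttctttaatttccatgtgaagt
EGFR intron 1: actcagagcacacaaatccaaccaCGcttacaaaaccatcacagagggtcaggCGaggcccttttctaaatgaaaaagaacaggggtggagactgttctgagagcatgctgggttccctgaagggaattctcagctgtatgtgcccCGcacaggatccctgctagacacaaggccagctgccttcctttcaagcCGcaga
EPHB2 intron 1: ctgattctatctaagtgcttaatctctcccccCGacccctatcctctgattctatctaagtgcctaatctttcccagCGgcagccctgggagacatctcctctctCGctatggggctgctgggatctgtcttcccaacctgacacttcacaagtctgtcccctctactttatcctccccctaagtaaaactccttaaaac

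The upstream windows held 21 CG in EGFR, 22 in MET, 23 in ALK, 12 in EPHA2, 27 in RET and 3 in ROS1. The RET window was thus the richest in CG of the 6, although no interval lay at its start, while the ROS1 window was the poorest. The intronic H3K27ac windows held 4 CG in EGFR and 3 in EPHB2.

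A start was called marked when an interval lay within 1 kb of the outermost annotated 5′ end of a gene. H3K4me3 marked 25 of the 57 receptor starts, or 43.9% (interval 30.7% to 57.6%), against 38.2% of all protein-coding starts. H3K27ac marked 6 receptor starts, or 10.5% (3.96% to 21.5%), against 23.6%. Both marks were found at 5 starts (8.77%, 2.91% to 19.3%) against 18.6%. H3K4me3 was therefore about as frequent at receptor starts as elsewhere, and its interval holds the value of all genes, while the interval of H3K27ac lies below it under this definition of a start.

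H3K4me3 alone was found at 20 receptors (35.1%), against 19.6% of all starts, and H3K27ac alone at 1 receptor, EPHA2, against 4.99%. The remaining 31 receptors (54.4%) had neither mark, against 56.8%. Among outer starts with H3K4me3, 20% of the receptors (6.83% to 40.7%) also had H3K27ac, and 48.6% of all protein-coding starts did. With the start of any annotated transcript, H3K27ac was found at 12 of 31 receptors with H3K4me3 and at 5093 of 9148 such protein-coding genes. This last count is by gene, and the marks may lie at different starts of it, as in IGF1R.

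**Figure D1:**
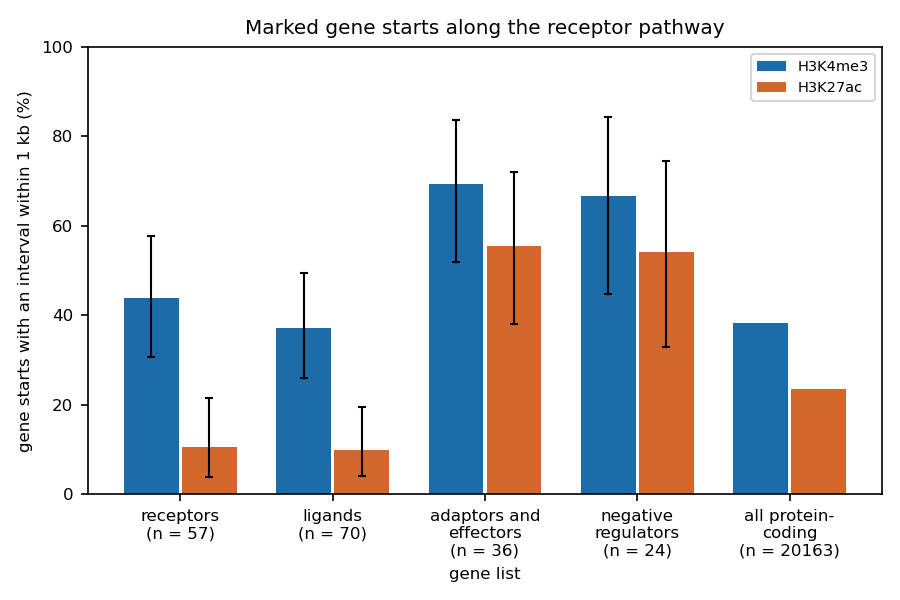
Share of gene starts with an H3K4me3 (blue) or H3K27ac (orange) interval within 1 kb, in percent, for the receptors, 3 lists of pathway genes and all protein-coding genes. Bars start at 0 and lines are exact 95% intervals for counting error; 10.5% of the receptors had H3K27ac, against 23.6% of all protein-coding genes.

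The result for H3K27ac depended on which start was used. With the start of the canonical transcript, H3K4me3 was found at 25 receptors against 41.3% of all genes, H3K27ac at 9 (15.8%, 7.48% to 27.9%) against 25.2%, and both marks at 7 (12.3%, 5.08% to 23.7%) against 20.4%. With the start of any annotated transcript, H3K4me3 was found at 31 receptors (54.4%) against 45.4%, and H3K27ac at 17 (29.8%, 18.4% to 43.4%) against 30.7%. At the canonical start, as at any transcript start, the interval of the receptors thus held the H3K27ac share of all genes, so that the lower share was not kept beyond counting error. For H3K4me3 the order of receptors and all genes also turned, from 43.9% against 38.2% within 1 kb of the outer start to 28.1% against 30.8% within 500 bases. The 11 receptors that gained H3K27ac in this way were ERBB2, ERBB3, IGF1R, PDGFRB, FLT4, FGFR1, TYRO3, EPHB1, DDR1, LMTK3 and AATK.

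The class of 6 receptors changed between the outer and the canonical start. ERBB3, a partner of ERBB2 with little kinase activity of its own, TYRO3, a receptor for GAS6 and PROS1, and DDR1, a collagen receptor, had neither mark at the outer start and both at the canonical start, which lay 3366, 1537 and 8098 bp further in. CSF1R, the receptor of macrophage colony-stimulating factor, had both marks at the outer start and neither at the canonical start, 26818 bp further in. LMTK3 had H3K4me3 at the outer start and neither mark at the canonical start, 2100 bp further in. ERBB2 is described with its family below.

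Each interval carries the −log10 q of its summit, a score that ranks intervals within its own list and cannot be compared between the marks. The highest H3K4me3 score at marked receptor starts had a median of 2.98 and ranged from 1.31 (MST1R) to 9.27 (EGFR), against a median of 3.76 at all marked protein-coding starts. For H3K27ac the median was 2.74 and the range 1.55 (EPHB2) to 5.82 (EGFR), against 3.05. The receptors were therefore spread over the scores of the lists rather than gathered at the top.

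**Figure D2:**
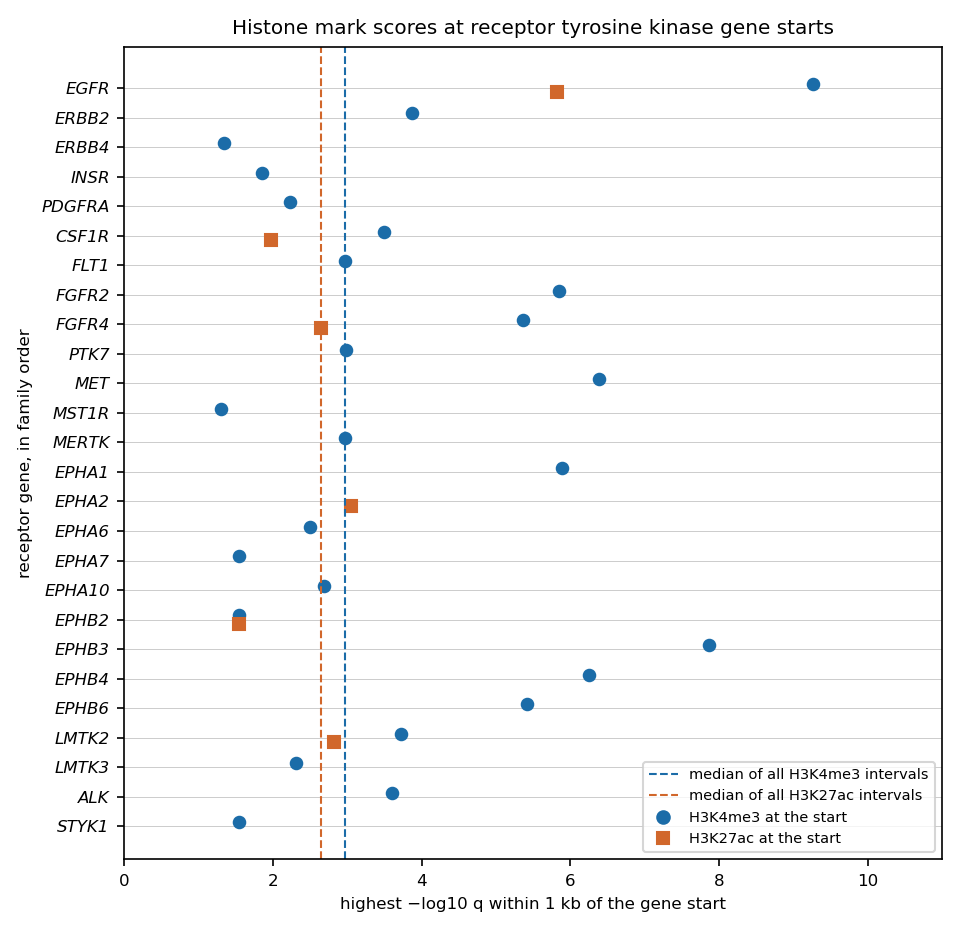
Highest −log10 q within 1 kb of the start for the 26 receptors with an interval there, with H3K4me3 as blue circles, H3K27ac as orange squares and dashed lines at the median of each whole list. EGFR has the highest value of both marks, 9.27 and 5.82.

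The ERBB family holds the epidermal growth factor receptor and its relatives. EGFR (chr7:55086710-55279321, plus strand) had the highest score of both marks among the receptor starts. Its H3K4me3 intervals at the start were chr7:55086067-55086578, upstream, with a score of 3.87, and chr7:55087297-55088016, in intron 1, with 9.27. A score of 9.27 exceeded 98.1% of the H3K4me3 list. Its H3K27ac intervals were chr7:55085624-55086261, upstream, with 5.82, above 95.1% of the list, and chr7:55087193-55087689, in intron 1, with 3.04. Both marks thus lay on either side of the EGFR start, shared bases on each side, and left the start base itself uncovered.

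EGFR also held the most H3K27ac intervals of all receptors. There were 21 over the gene and 10 kb of flank, 18 of them in intron 1, and 0.193% of protein-coding genes had at least as many. The 19 intervals more than 1 kb from the start ran from 30.5 kb to 173 kb downstream, in introns 1, 3 and 21 of the canonical transcript. The farthest, in intron 21, lay 131 bp from the start of another annotated EGFR transcript. The scores over the whole span ran from 1.55 to 5.82 with a median of 2.32. The highest H3K27ac score in intron 1, 3.71, was shared by chr7:55197991-55198904 and chr7:55201864-55202248, which lie near each other about 112 kb and 115 kb from the start. Of the 5 H3K4me3 intervals of EGFR, 3 lay deep in intron 1, between 47.9 kb and 107 kb.

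ERBB2, the receptor amplified in part of breast and lung cancers, had H3K4me3 at the outer start (chr17:37845099-37845298, score 3.87), with its edge 932 bp away. Its canonical start lies 12150 bp further in, and there H3K27ac alone was found (chr17:37856340-37856719, score 2.44). A further 3 H3K27ac intervals followed in intron 1, with scores of 1.89 to 3.07. Intron 1 also held 2 H3K4me3 intervals, chr17:37859200-37859727 (3.51) and chr17:37862674-37862886 (2.63). The former shared 367 bp with H3K27ac and covered the start of another annotated ERBB2 transcript. The highest interval over the ERBB2 span, an H3K4me3 interval of 9.32 in the downstream flank (chr17:37894181-37894710), lay 1 bp from the start of GRB7, an adaptor gene that is the neighbour of ERBB2. ERBB4, a neuregulin receptor, had 1 H3K4me3 interval at the start with a low score, 1.34, and no H3K27ac.

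Near ERBB3 the outer start was unmarked, but H3K4me3 (2.59) and H3K27ac (3.12) shared bases 2.61 kb and 2.70 kb from it. The intervals in its downstream flank lay near PA2G4, with H3K27ac of 4.61 at 141 bp from the start of that gene. Receptor spans with 10 kb of flank therefore held intervals of neighbouring genes. Of 83 H3K4me3 intervals over the spans, 9 lay within 1 kb of the start of another protein-coding gene that was nearer than the receptor start, and of 122 H3K27ac intervals 6 did.

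In the insulin receptor family, INSR had 1 H3K4me3 interval at the start (1.85) and IGF1R, the receptor of insulin-like growth factors, had none within 1 kb. IGF1R (chr15:99191768-99507759, plus strand) nevertheless held 13 H3K27ac intervals, second to EGFR, of which 11 lay in intron 2. They were found between 21.2 kb and 291 kb from the start with scores of 1.40 to 4.32, the highest at chr15:99318881-99319092. The nearest H3K4me3 intervals of IGF1R lay at 1.86 kb and 3.24 kb, in intron 1. A further H3K4me3 interval in intron 2, chr15:99400468-99400675, scored 5.43, and 77.4% of its 32-base words occurred more than once in the genome. The part of repeated sequence in that interval was not tested.

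Among the receptors of platelet-derived and colony-stimulating factors, PDGFRA (2.23) and CSF1R (3.49) had H3K4me3 at the start, and PDGFRB, KIT and FLT3 did not. The CSF1R intervals were chr5:149492539-149492860 for H3K4me3 and chr5:149492170-149492498 for H3K27ac (1.97), and they shared no base. Both lay at the outer start of CSF1R, and its canonical start, 26818 bp further in, had neither mark. The CSF1R span held 7 H3K27ac intervals, 6 of them more than 1 kb from the start. It overlaps the span of the neighbouring PDGFRB. All 6 H3K27ac intervals and the 1 H3K4me3 interval over the PDGFRB span were also counted for CSF1R. CSF1R is a gene of the macrophage lineage, and the blood marker PTPRC was unmarked in these libraries. The source of the CSF1R intervals was not tested. KIT, the stem cell factor receptor, and FLT3, a receptor of blood progenitors, had no interval over the gene and flank.

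Of the vascular endothelial growth factor receptors, FLT1 had H3K4me3 at the start (2.97), KDR had no interval, and FLT4 had 1 H3K27ac interval away from its outer start. The angiopoietin receptor TEK and its relative TIE1 were without any interval. The endothelial marker CDH5 was likewise unmarked.

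In the fibroblast growth factor receptor family, FGFR2 and FGFR4 had H3K4me3 at the start. FGFR2 had intervals on both sides, chr10:123358094-123358341 upstream with 5.84 and chr10:123356790-123356985 in intron 1 with 1.55. FGFR4 had an H3K4me3 interval over the start base (chr5:176513883-176514320, 5.37) and an H3K27ac interval in intron 1 (chr5:176514808-176515356, 2.65), with its edge 902 bp from the start. Of the 32-base words of that H3K27ac interval, 52.5% occurred more than once in the genome. It was the only interval at a receptor start above 50% in this measure, and without it H3K27ac would mark 5 starts and both marks 4. FGFR3 narrowly missed the limit, with 3 H3K4me3 intervals in intron 2 of which the nearest lay 1241 bp from the start. FGFR1 had a lone H3K27ac interval in intron 2 (1.93), which covered the start of another annotated FGFR1 transcript.

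MET, the hepatocyte growth factor receptor, had 1 H3K4me3 interval, at exon 1 (chr7:116312495-116312757, 6.39), and no H3K27ac within 1 kb. Its H3K27ac intervals lay in intron 1, at 4.62 kb (chr7:116316742-116316994, 2.82) and 13.6 kb (chr7:116325585-116326213, 5.10), and in intron 15, at 103 kb (chr7:116415450-116415648, 5.12). The last was in sequence of which 81.5% of the 32-base words recurred in the genome. MST1R, the receptor of macrophage-stimulating protein, had an H3K4me3 interval of 1.31 at the start, the lowest score in that list. A further H3K4me3 interval lay in intron 1 (chr3:49938599-49938845, 2.23). An H3K27ac interval lay 1419 bp upstream, and 66.5% of its 32-base words recurred in the genome. Both members of the MET family thus carried H3K4me3 alone at the start, at the upper and at the lower end of the scores.

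**Figure D3:**
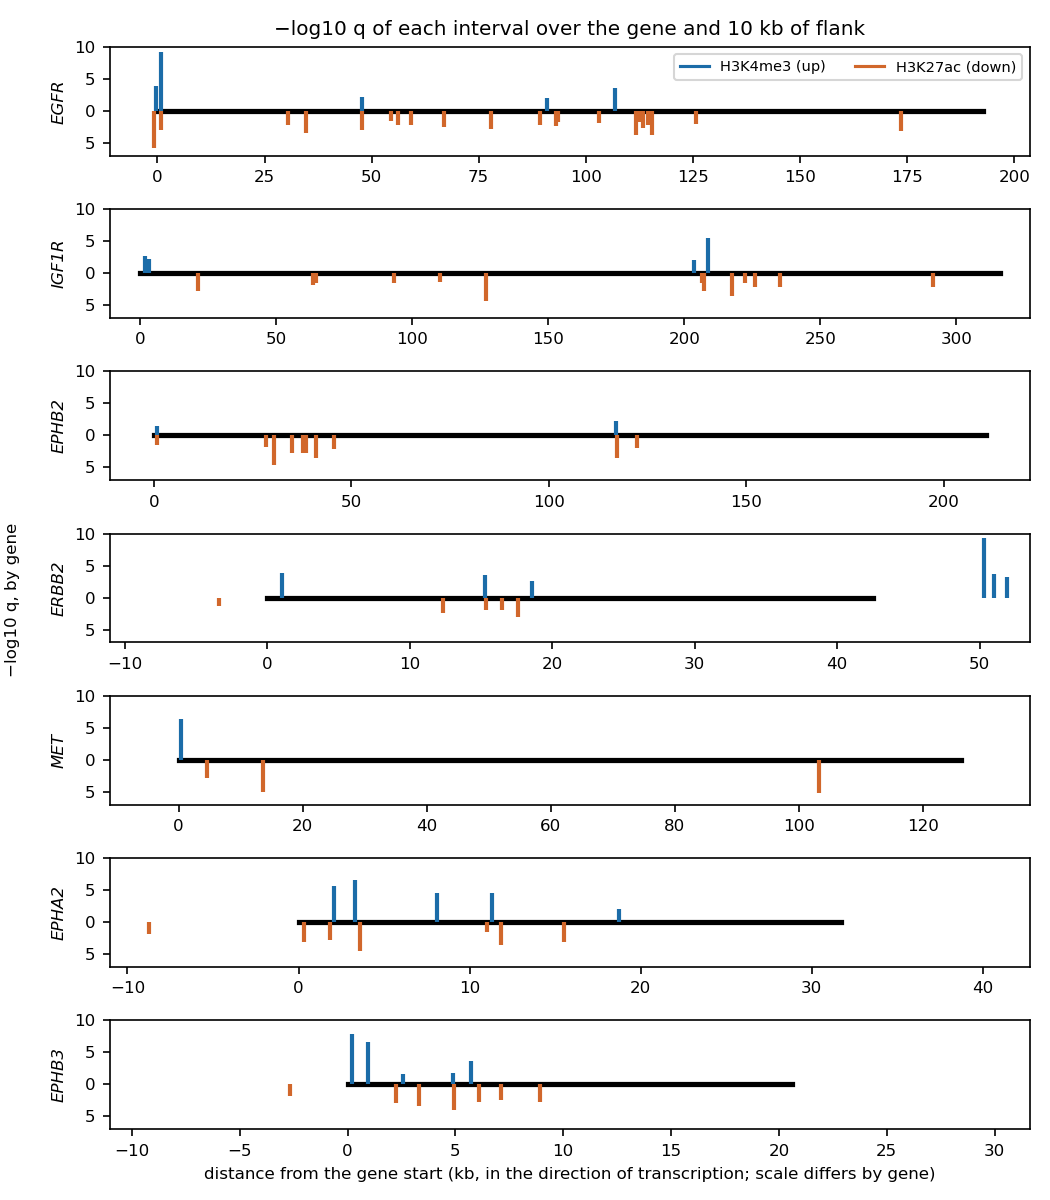
Every interval over 7 receptor genes and 10 kb of flank, by distance of its centre from the gene start in kb (scale differs by gene) and −log10 q, with H3K4me3 drawn upward, H3K27ac downward and the gene as a black line. The 18 H3K27ac intervals in EGFR intron 1 stretch to 115 kb, and the highest ERBB2 bar, 9.32, lies past the end of the gene at the start of GRB7.

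The Eph receptors bind ephrins on neighbouring cells and form the largest family of receptor tyrosine kinases. H3K4me3 marked 8 of the 14 Eph starts, against 38.2% of all starts, among them EPHB2, EPHB3, EPHB4 and EPHB6 of the 5 EPHB genes, and a family of this size allows no comparison. EPHB3 (chr3:184279573-184300196, plus strand) had the second highest start score of H3K4me3, 7.86 at chr3:184279587-184279939, with a further interval of 6.69 at chr3:184280177-184280829. It had no H3K27ac within 1 kb, but 7 intervals over its span, of which 6 lay in intron 1 between 2.26 kb and 8.94 kb, with scores of 2.46 to 4.01. EPHB4 (chr7:100423893-100424221, 6.25) and EPHB6, a receptor without kinase activity (chr7:142552062-142552346, 5.42), had no H3K27ac over their spans. The EPHB4 interval was nearer to the start of SLC12A9, which lies within 1 kb of the EPHB4 start, at 221 bp against 924 bp.

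EPHB2 had both marks at the start with low scores, 1.55 for H3K4me3 (chr1:23037964-23038232) and 1.55 for H3K27ac (chr1:23038137-23038390). Its higher H3K27ac lay within the gene, where 10 intervals were found in all, 8 of them in intron 1. The interval chr1:23066949-23068523, 30.4 kb from the start, was 1575 bp wide, the widest H3K27ac interval over any receptor span, with a score of 4.70 and no multi-copy word. In 3 of the other EPHB2 intervals more than 50% of the words were multi-copy, up to 100% for the one at chr1:23074883-23075169.

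EPHA2, a receptor that also signals without ligand, had H3K27ac alone within 1 kb (chr1:16481982-16482500, 3.05). Just past the limit it had H3K4me3 as well, with an edge at 1522 bp, in 2 wide intervals of intron 1 (chr1:16479893-16481042, 5.60, and chr1:16478919-16479614, 6.54). The EPHA2 span held 5 H3K4me3 and 7 H3K27ac intervals in 51.7 kb, and 4 of the latter shared bases with H3K4me3. Its class, H3K27ac alone, thus rested on the 1 kb limit. EPHA1 had H3K4me3 at the start (chr7:143105083-143105631, 5.89), and its H3K27ac lay in the downstream flank near ZYX. EPHA6 (2.49), EPHA7 (1.55) and EPHA10 (2.68) had H3K4me3 alone, and EPHA3, EPHA4, EPHA5 and EPHA8 had no interval.

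**Figure D4:**
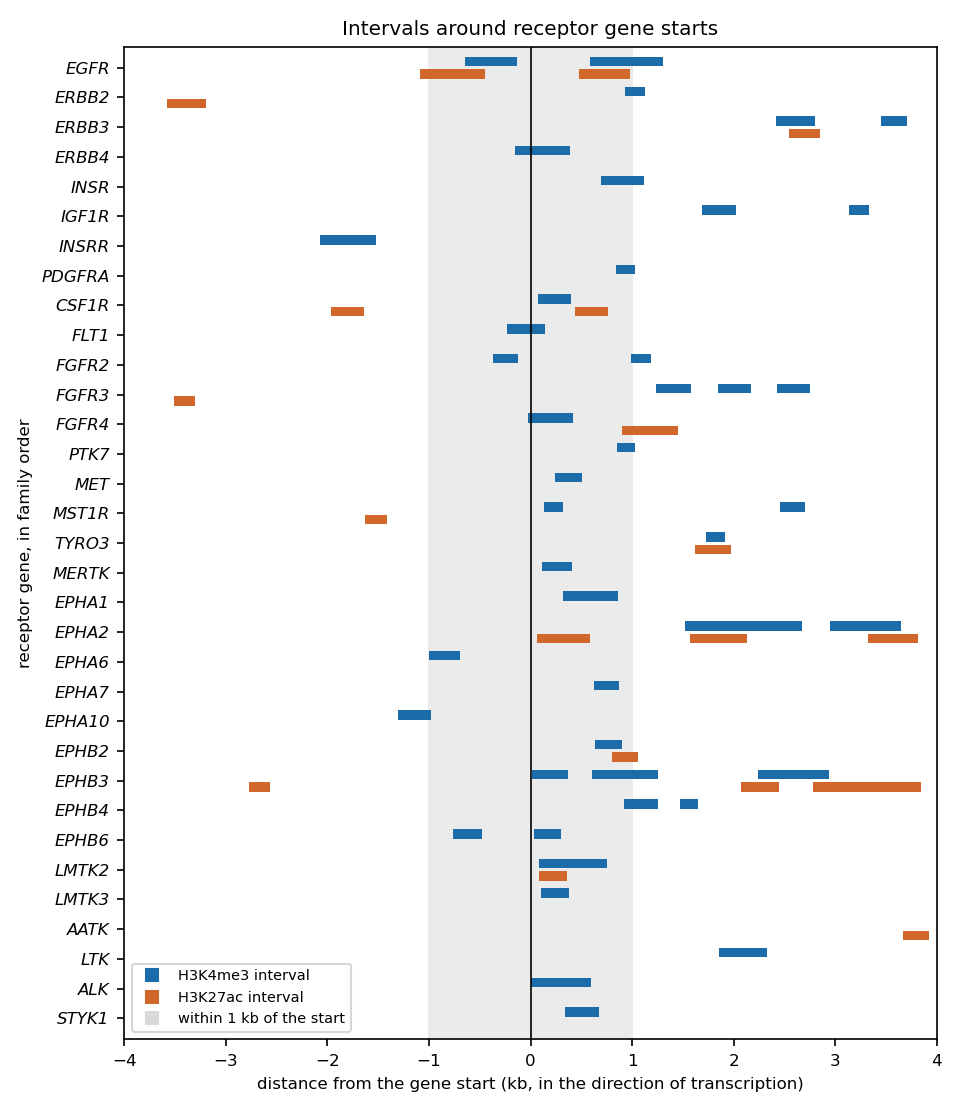
Intervals within 4 kb of the start for the 33 receptors that have any there, drawn to scale by distance in the direction of transcription (H3K4me3 blue, H3K27ac orange), with the 1 kb limit shaded. Most bars at the start lie downstream of it, and those of FGFR3, INSRR, EPHA2, TYRO3 and EPHB3 show what a limit of 1 kb left out.

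Among the other kinases, LMTK2, a membrane kinase of endosomal transport, had both marks over the same bases of exon 1 (chr7:97736262-97736931, 3.72, and chr7:97736260-97736536, 2.82). ALK, rearranged in part of lung adenocarcinomas and otherwise a receptor of the nervous system, had H3K4me3 at exon 1 (chr2:30143857-30144450, 3.60) and a lone H3K27ac interval in intron 23, 706 kb from the start, with a score of 1.55. RET, the receptor of the glial cell line-derived neurotrophic factor family, had neither mark at its start. Its H3K4me3 lay in the downstream flank, where chr10:43634003-43634183 scored 5.47 at 110 bp from the start of CSGALNACT2, and of its 2 H3K27ac intervals 1 lay in exon 20. ROS1 had no interval of either mark over the gene and flank, the nearest being H3K27ac 23.7 kb from its start. MERTK (2.97), PTK7 (2.98), LMTK3 (2.31) and STYK1 (1.55) had H3K4me3 alone at the start.

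DDR2, a collagen receptor of connective tissue, had no H3K4me3, yet held H3K27ac in intron 2 (chr1:162666561-162666896, 4.51) and intron 3 (chr1:162700548-162700799, 5.86). The latter was the highest H3K27ac score over any receptor span, slightly above the 5.82 of EGFR, and was singled out after its value was seen. DDR1 had 4 intervals of each mark, all between 4.82 kb and 10.0 kb from the outer start, with H3K4me3 up to 5.47. ROR1, a Wnt receptor, held 5 H3K27ac intervals and no H3K4me3. EPHB1 held 4 H3K27ac intervals, AATK 3 and RYK 1, NTRK3 and LTK 1 H3K4me3 interval each, and the single intervals of AXL and INSRR lay in a flank.

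Neither mark over the gene with 10 kb of flank was found for 13 receptors (22.8%, 12.7% to 35.8%), against 35.3% of all protein-coding genes, a share that the interval holds. They were KIT, FLT3, KDR, NTRK2, ROR2, MUSK, TIE1, TEK, EPHA3, EPHA4, EPHA5, EPHA8 and ROS1. The nearest interval of either mark lay between 15.4 kb (TIE1) and 957 kb (EPHA3) from their starts, with a median of 185 kb, and over 100 kb away for 10 of the 13. Of the 31 receptors unmarked at the start, 18 (58.1%) held an interval elsewhere in the span, against 37.9% of all protein-coding genes unmarked at the start. The longer span of the receptors moves with this share, and its part was not tested.

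Over the spans, H3K4me3 was found at 38 receptors (66.7%, 52.9% to 78.6%), against 56.8% of all genes, and H3K27ac at 29 (50.9%, 37.3% to 64.4%), against 48.9%. The receptors are long genes, with a median of 83.5 kb against 27.2 kb for all, and the part of length in these shares was not tested. Per 100 kb of span there were 0.776 H3K4me3 intervals over the receptors and 1.495 over all genes, and 1.14 H3K27ac intervals against 1.61. The higher share of receptors with H3K4me3 in the span therefore stood beside a lower density of intervals.

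The marks differed in how near to gene starts they lay. Of 83 H3K4me3 intervals over the spans 29 were at an outer start, but of 122 H3K27ac intervals only 7 were. The totals of 83 and 122 count intervals in the overlap of the PDGFRB and CSF1R spans once for each gene. Intron 1 held 52 of the H3K27ac intervals (42.6%), 18 of them in EGFR, and 30 of the H3K4me3 intervals (36.1%). Other introns held 33 (27.05%) and 13 (15.7%). Introns are those of the canonical transcript, and some of these intervals lay at starts of other annotated transcripts. The shares in introns were not counted over all genes. Of the 116 distinct H3K27ac intervals, 95 (81.9%) lay more than 3 kb from every protein-coding start, against 69.5% of the whole list, and of the 82 distinct H3K4me3 intervals 30 (36.6%) did, against 39.8%. EGFR, IGF1R and EPHB2 together held 44 of the 122 H3K27ac intervals, 36.1%.

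At the outer starts the intervals lay mainly on the transcribed side. By definition, any other annotated start of the same gene lies on that side too. The centres of 23 of the 29 H3K4me3 intervals were downstream of the start, with a median of 299 bp, and 3 intervals covered the start base. For H3K27ac 6 of 7 centres were downstream, with a median of 601 bp, and none covered the start base. The same was not counted over all protein-coding starts, so these positions are not set against other genes. The members just inside the 1 kb limit for H3K4me3 were EPHB4 (924 bp), ERBB2 (932 bp) and EPHA10 (980 bp), and those just outside were FGFR3 (1241 bp), INSRR (1519 bp) and EPHA2 (1522 bp). For H3K27ac, EGFR (449 bp), EPHB2 (805 bp) and FGFR4 (902 bp) were the last inside, and MST1R (1419 bp), TYRO3 (1620 bp) and EPHB3 (2076 bp) the first outside.

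CG content was set beside the marks at the receptor starts. In a window of 1001 bases around the start, the observed over expected CpG ratio reached 0.6 at 20 of 25 H3K4me3-marked starts (80%) and at 20 of 32 unmarked ones (62.5%). Over all protein-coding starts the shares were 87.9% and 42.2%. The median ratio of the receptors was 0.764 at marked and 0.779 at unmarked starts, against 0.783 and 0.486 over all genes, so that the medians of the receptors did not separate the classes. Unmarked receptors with a high ratio included RYK (1.06), IGF1R (1.02), FLT4 (0.975), EPHA8 (0.964), NTRK2 (0.936) and RET (0.924), and the marked start with the lowest was CSF1R (0.249). DDR1 (0.178), DDR2 (0.179), ROS1 (0.206) and TYRO3 (0.233) were among the CpG-poor outer starts without a mark, of which DDR1 and TYRO3 carried both marks at the canonical start.

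**Figure D5:**
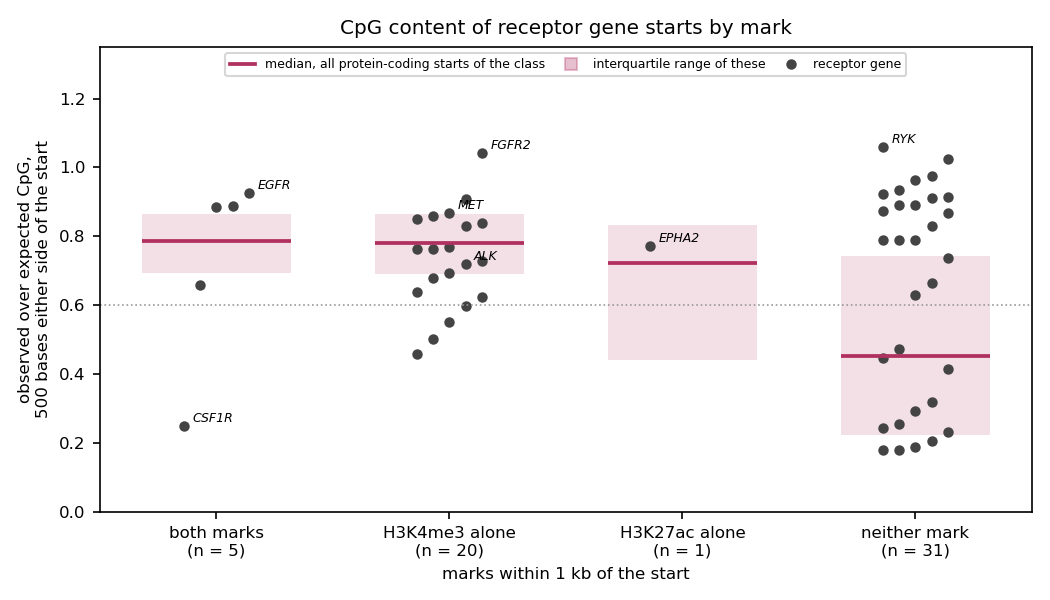
Observed over expected CpG in the 1001 bases around the start of each receptor (black points), by the marks at the start, with the median and interquartile range of all protein-coding starts of the same class in red and a dotted line at 0.6. Receptors with neither mark range from RYK at 1.06 to DDR1 at 0.178.

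By chromosome, all 6 receptors on chromosome 7 (EGFR, MET, EPHA1, EPHB4, EPHB6 and LMTK2) had H3K4me3 at the start, where 38.4% of the protein-coding starts did. None of the 4 receptors on chromosome 9 was marked (33.8% of its starts), none of the 4 on chromosome 15 (46.0%), and 1 of the 5 on chromosome 4 (25.2%). These chromosomes were singled out after their values were seen.

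The ligands, adaptors and negative regulators of the receptors were counted in the same way. Of all protein-coding starts, H3K4me3 marked 38.2% and H3K27ac 23.6%. Of 70 ligand genes, H3K4me3 marked 26 (37.1%, 25.9% to 49.5%) and H3K27ac 7 (10%, 4.12% to 19.5%) against 10.5% of the receptors. The highest H3K4me3 scores among ligands were those of EFNA1 (7.09), an ephrin, PROS1 (5.47), a ligand of TYRO3 and MERTK, and KITLG (5.41), the ligand of KIT. The highest H3K27ac scores were those of EFNA5 (5.10), EFNA1 (4.01) and TGFA (3.69), an EGFR ligand, and VEGFB had H3K27ac alone.

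Of 36 adaptor and effector genes, H3K4me3 marked 25 (69.4%, 51.9% to 83.7%) and H3K27ac 20 (55.6%, 38.1% to 72.1%). The shares of all protein-coding starts were 38.2% and 23.6%. SHC1 (10.99), RASA1 (9.93), a negative regulator of RAS, and GRB7 (9.32) led for H3K4me3, and GRB2, PIK3CA and PIK3R3, with 6.88 each, for H3K27ac. H3K27ac alone was found at GRB2, PIK3R3, CRKL, NCK1 and VAV1. Of 24 negative regulators, H3K4me3 marked 16 (66.7%, 44.7% to 84.4%) and H3K27ac 13 (54.2%, 32.8% to 74.4%). SPRED1 (6.74), SH2B3 (6.50) and LRIG2 (6.39) led for H3K4me3, SPRY4 (10.3), SPRED1 (6.60) and PTPN1 (5.98) for H3K27ac, and CBLC and SPRY2 had H3K27ac alone. At the outer start the intervals of these 2 lists for H3K27ac lie above that of the receptors, without a test of the difference. With any transcript start the interval of the receptors was 18.4% to 43.4%, and the lists were not counted separately there.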

How the data were processed

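H2087 cells were profiled by ChIP-seq, with 1 library per mark. According to the submitters' processing notes, alignment to hg19 used Bowtie 1.1.1 and MACS2 2.1.0 called the peaks. The cut-off, the calling mode, the treatment of duplicates and whether the input, kept for normalization, served in peak calling are not given in the sources used here. The deposited lists carry a column without header, read from its values as the −log10 q-value of each summit, as written by the authors' peak caller, since the smallest values lie just above 1.30 (q of 0.05). Distinct intervals were kept with their highest score, and depth is unknown. Gene positions came from GENCODE 44 mapped to hg19, and sequences from GRCh37. An interval within 1 kb of the outer gene start marked that start, and the span was the gene with 10 kb of flank. The members and lists were chosen with earlier results of these data known. Named were members with both marks or with H3K27ac alone at the start, the 10 highest start scores per mark, the 5 members with most H3K27ac intervals, those nearest the limit, and 6 drivers. The 5 were EGFR, IGF1R, EPHB2, CSF1R and EPHA2, and EPHB3 tied with the last of them at 7 intervals. Receptors outside this rule are named for their counts. Multi-copy sequence was measured by 32-base words on both strands. The counting was tested on simulated intervals. A further gene of the marker lists is not reported here. Alternatives were other distances, flanks, starts, widths and scores, and merging. Python 3.11.15, numpy 2.4.6, pandas 2.3.3, scipy 1.17.1 and matplotlib 3.10.9 were used.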

Additional observations from a re-analysis of the deposited data

How the results depend on the processing

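Of 62 alternative values for 11 results, 43 stayed within the tolerance of 1.5 times for counts and 19 moved. The tolerance was set on the values of the receptors or pathway lists, not on the comparison with all genes. H3K27ac at the canonical start (9 receptors) stayed within it, although the lower share was not kept there beyond counting error. The receptors with H3K4me3 at the start (25) fell to 16 within 500 bases (28.1% against 30.8% of all genes), 15 in the upper part of the list by median score (26.3% against 26.8%) and 8 with a score of at least 5 (14.04% against 10.7%). The first and second of these turned the order of receptors and all genes. Those with H3K27ac (6) rose to 10 within 3 kb (17.5% against 29.9%) and 17 with any transcript start (29.8% against 30.7%), and fell to 1 with a score of at least 5 (1.75% against 3.53%). Those with both marks (5) came to 3 within 500 bases (5.26% against 12.6%), 10 within 3 kb (17.5% against 24.3%), 12 with any transcript start (21.1% against 25.3%), 3 in the upper part (5.26% against 10.01%) and 1 with a score of at least 5 (1.75% against 1.56%, which turned the order). With any transcript start, the marks could lie at different starts of the same gene. Over the span, H3K4me3 receptors (38) fell to 25 in the upper part (43.9% against 42.4%) and 13 with a score of at least 5 (22.8% against 19.1%), and H3K27ac receptors (29) to 18 (31.6% against 34.7%) and 4 (7.02% against 9.45%), which turned the order for H3K27ac. With 50 kb of flank H3K27ac was found at 35 receptors (61.4% against 63.9%). That count stayed within the tolerance, but the order turned there too. Intervals over the spans (83 of H3K4me3 and 122 of H3K27ac) came to 148 and 195 with 50 kb of flank and to 42 and 48 in the upper part. The score of at least 5, the canonical start and the alternatives for the pathway lists were chosen after seeing the data. No replicate could be left out. No paired analysis was possible because only 1 library per mark was analysed. Depth limits every statement on unmarked genes, since absence of an interval is not absence of the mark.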

Other observations

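The letters TGANTCA, the core recognised by AP-1 factors and equal to their own reverse complement, were searched in the central 200 bases of intervals. They were present in 3 of the 95 H3K27ac intervals over receptor spans more than 3 kb from every protein-coding start (3.16%), against 3.72% of such intervals in the whole list. The same 95 windows held a median of 3 CG, against 12 in the 21 H3K27ac windows within 3 kb of a start. Over 50% of the 32-base words were multi-copy in 7 of the 116 distinct H3K27ac intervals and in 3 of the 82 distinct H3K4me3 intervals.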
